A study of Canis lupus familiaris with 28 samples.

Results

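A pair of mutant YAP1 forms was set side by side in confluent dog cells: the YAP5SA-labelled libraries against the libraries of double knockdown cells with YAP5SA+S94A. Members were taken from the titles and group labels of experiment 2. They are 5 distinct libraries of the 27 in the series, 2 YAP5SA-labelled (replicates 1 and 3) and 3 YAP5SA+S94A (replicates 1, 2 and 3). The series has 28 samples, and the file of YAP5SA-labelled replicate 2 is identical to that of replicate 1, and both together count as 1 sample here.

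All cells were TR-T10, a dog line in which introduced constructs answer to doxycycline through the tetracycline repressor. The YAP5SA+S94A cells carried shRNAs against p190A (selected in hygromycin) and p190B (selected in puromycin) together with the YAP5SA+S94A construct (selected in G418), and in these cells the YAP construct was switched on together with the knockdown. The genotype of the YAP5SA-labelled cells is given in 2 ways: the source field names YAP5SA expression alone, and the genotype field adds both shRNAs. That conflict could not be settled here, so the group keeps its label as a name. The 2 other groups of experiment 2, with 3 libraries each, were wild-type TR-T10 and double knockdown cells with both shRNAs and no YAP construct. The protocols give 3 days of doxycycline at 4 µg/ml to induce knockdown, followed by replating for 3 to 5 days. Whether wild-type cells received doxycycline is not given in the labels. Each line went through its own transduction and selection, and whether a line is a clone is not given, so line and construct cannot be told apart.

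YAP1 is a transcriptional coactivator that reaches DNA mainly through TEAD transcription factors. In dense epithelial cultures the Hippo kinases LATS1 and LATS2 phosphorylate YAP1 and hold it in the cytoplasm. YAP5SA has alanine in place of the serines that LATS phosphorylates and so escapes this control. The added S94A change abolishes TEAD binding, which makes YAP5SA+S94A the usual control for TEAD-dependent effects of YAP5SA. The p190A and p190B proteins are GTPase-activating proteins, and the series title places them upstream of YAP1 in contact inhibition.

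Reads had been counted per Ensembl dog transcript. The files do not pair these identifiers with gene names, and of 29884 identifiers 0 were found in the reference table of 43286 dog genes. The targeted genes, known YAP targets and cell type markers could therefore not be read, and 2 transcripts in each direction are given by identifier. The 5 libraries held 12316084 to 15675100 reads assigned to single transcripts. The labels do not say whether replicates were separate cultures. The p-values therefore measure only how far these samples spread, and that spread may be technical.

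The groups of experiment 2 separated cleanly. CPM values are read counts relative to the library's total over transcripts that passed the filter on low counts, after TMM scaling. Log2 CPM used a prior count of 2. The median absolute difference in log2 CPM was 0.0869 between the YAP5SA-labelled libraries and 0.0797 to 0.0837 among the YAP5SA+S94A libraries. Between a YAP5SA-labelled and a YAP5SA+S94A library it was 0.264 to 0.280. The YAP5SA-labelled libraries were 0.265 to 0.299 from wild type and 0.340 to 0.360 from double knockdown, while the YAP5SA+S94A libraries were 0.247 to 0.270 from wild type and 0.228 to 0.244 from double knockdown. By this distance the YAP5SA-labelled libraries were not the nearer of the YAP lines to wild type. On the first principal component, with 53.9% of the variance, the YAP5SA-labelled libraries (-40.6 and -39.5) lay beside wild type (-38.3 to -37.5). The YAP5SA+S94A libraries lay at 19.2 to 20.2 and double knockdown at 43.6 to 46.3. The second component, with 21.8% of the variance, placed the YAP5SA-labelled libraries at -43.4 and -41.0, apart from wild type at 25.8 to 27.9, and the YAP5SA+S94A libraries at 7.14 to 7.30.

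The direct comparison asked how cells with a TEAD-binding YAP5SA differ from double knockdown cells whose YAP5SA cannot bind TEAD. In YAP5SA-labelled cells 3626 transcripts were higher (27.8%) and 3464 lower (26.5%) than in YAP5SA+S94A cells, 54.3% of the 13061 tested (edgeR quasi-likelihood test, Benjamini-Hochberg adjusted p under 0.05, fitted with all 11 distinct libraries of experiment 2). CPM ranges did not overlap for 4546 higher transcripts (34.8%) and 4454 lower ones (34.1%), which includes 7010 of the 7090 called. In these bulk samples, fewer cells with a transcript and less of it per cell cannot be told apart.

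With so many calls, size is more informative. At least 2-fold and called were 847 transcripts higher (6.48% of those tested) and 348 lower (2.66%), 9.15% together. Calls under 2-fold were 2779 higher and 3116 lower, so the excess of higher transcripts lay among the large differences. Higher transcripts outnumbered lower ones in each band from 2-fold up: 528 against 262 at 2 to 4-fold, 160 against 51 at 4 to 8-fold, 66 against 28 at 8 to 16-fold, and 93 against 7 beyond 16-fold. Tested against a fold of 1.2 (edgeR glmTreat), 2002 were higher (15.3%) and 1474 lower (11.3%).

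**Figure D1:**
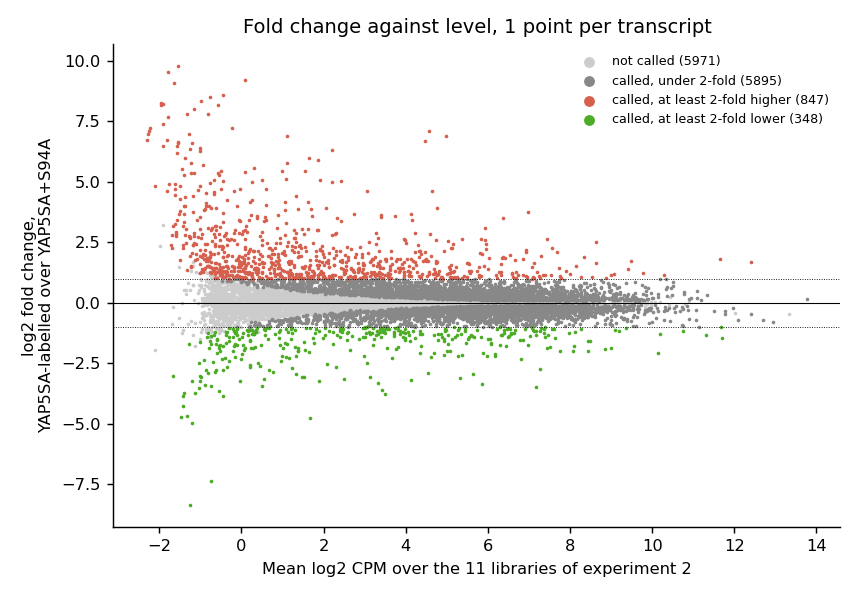
Log2 fold change of YAP5SA-labelled over YAP5SA+S94A libraries (vertical axis) against mean log2 CPM over the 11 libraries of experiment 2 (horizontal axis), 1 point per transcript, with dotted lines at 2-fold. The 847 transcripts at least 2-fold higher outnumber the 348 at least 2-fold lower, mostly at low mean levels, where the mean includes the compared libraries.

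The excess lay among transcripts with a low mean level over all libraries of experiment 2. Tested transcripts were ranked by that mean and divided into 4 equal classes. The ranking uses the compared libraries, and most libraries in it are not YAP5SA-labelled. A transcript high only in YAP5SA-labelled cells thus tends toward a low class. How far this shapes the counts was not tested. In the lowest class 536 transcripts were at least 2-fold higher and 156 lower. The next classes had 181 against 82 and 70 against 46, and in the highest class, with mean log2 CPM from 6.17 to 13.8, the numbers were 60 and 64. Called transcripts of any size made up 32.0% of the lowest class and 74.2% of the highest.

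Many of the largest folds had few reads on the low side. Of the 93 transcripts beyond 16-fold, 68 had under 10 summed counts in the YAP5SA+S94A libraries and 27 had none at all. Of all 847 higher transcripts, 470 had at least 10 counts in each of the 5 libraries, as did 230 of the 348 lower ones. A switch-like pattern, with at least 50 counts in both YAP5SA-labelled libraries and at most 3 in every YAP5SA+S94A library, was shown by 14 transcripts. Of these, 4 also had at least 50 counts in every wild-type library, 6 had at most 3 in every wild-type library and 7 had at most 3 in every double knockdown library. The reverse pattern, high in YAP5SA+S94A and near 0 in YAP5SA-labelled cells, was shown by 0 transcripts.

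As a share of the transcript-assigned reads, the 847 higher transcripts took up 7.01% and 6.75% in the YAP5SA-labelled libraries and 2.11% to 2.14% in the YAP5SA+S94A libraries. They took up 2.86% to 2.88% in wild type and 2.24% to 2.41% in double knockdown. The 348 lower transcripts took up 1.41% and 1.53% in YAP5SA-labelled libraries, against 3.80% to 3.91% in YAP5SA+S94A, 2.46% to 2.49% in wild type and 3.50% to 3.65% in double knockdown libraries. These transcripts were chosen on the same libraries, so the shares describe their weight and test nothing.

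Transcripts that could be shown to be alike were fewer. Of all 13061 tested, called or not, 2806 (21.5%) had a 95% interval of the fold change inside 1.2-fold. Of the 5971 not called, 2160 had a 95% interval of the fold change inside 1.2-fold and 3943 inside 1.5-fold. For the other 2028 the interval reached 1.5-fold or beyond, so a difference of that size was not excluded at this depth and number of libraries.

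Transcript ENSCAFT00000042976 had the largest increase under the rule for printed transcripts, which asked for at least 10 counts in each of the 5 libraries. It stood at 644 and 666 CPM in the YAP5SA-labelled libraries and at 3.52, 5.45 and 5.66 CPM in the YAP5SA+S94A libraries. The groups were far from overlapping. Wild type held 107, 103 and 111 CPM and double knockdown 2.03, 2.64 and 3.48 CPM, so the YAP5SA-labelled level was above all other groups and the YAP5SA+S94A level was near that of double knockdown. The log2 fold change of YAP5SA-labelled over YAP5SA+S94A was 7.07 (SE 0.070, edgeR adjusted p = 1.2e-45), and over wild type it was 2.62 (SE 0.0445, edgeR adjusted p = 4.8e-37).

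Transcript ENSCAFT00000034950 came next and had a like profile. Its level was 869 and 797 CPM in YAP5SA-labelled and 7.19, 6.87 and 7.16 CPM in YAP5SA+S94A libraries, a log2 fold change of 6.88 (SE 0.0609, edgeR adjusted p = 1.2e-56). Wild type held 145, 155 and 151 CPM and double knockdown 2.27, 3.78 and 3.67 CPM. As for ENSCAFT00000042976, the order of levels was YAP5SA-labelled, wild type, YAP5SA+S94A and double knockdown, with no overlap between neighbours, narrowly so for the last pair of ENSCAFT00000042976 (3.52 against 3.48 CPM). The YAP5SA+S94A level exceeded double knockdown by a log2 fold change of 1.14 (SE 0.143, edgeR adjusted p = 1.7e-09) for ENSCAFT00000034950 and 0.84 (SE 0.175, edgeR adjusted p = 8.8e-05) for ENSCAFT00000042976.

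Both transcripts were scarce in experiment 1, which shares no library with experiment 2. ENSCAFT00000042976 had 32 and 79 counts in confluent wild type there, 1 and 2 counts in double knockdown, and 0 and 1 counts with either shRNA alone. ENSCAFT00000034950 had 14 and 21 counts in confluent wild type and 0 in both double knockdown libraries. In each experiment double knockdown libraries were below wild type for both. The wild-type level differed between experiments, at 2.92 and 6.02 CPM for ENSCAFT00000042976 in experiment 1 against 103 to 111 CPM in experiment 2. For ENSCAFT00000034950 it was 1.28 and 1.60 CPM against 145 to 155 CPM. The 2 experiments were normalized separately, and the unscaled counts differed too. In experiment 2 wild type had 1419 to 1677 counts of ENSCAFT00000042976 and 2097 to 2275 of ENSCAFT00000034950. The reason was not tested.

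Transcript ENSCAFT00000035800 had the largest decrease. It was at 1.64 and 2.13 CPM in YAP5SA-labelled and at 26.2, 24.9 and 27.2 CPM in YAP5SA+S94A libraries, a log2 fold change of -3.76 (SE 0.137, edgeR adjusted p = 3.1e-32). Wild type held 2.10, 2.32 and 2.08 CPM, a range that overlaps the YAP5SA-labelled one, and double knockdown was highest at 71.6, 75 and 72.8 CPM. Against wild type the YAP5SA-labelled log2 fold change was -0.18 (SE 0.233, edgeR adjusted p = 5.6e-01). In experiment 1 this transcript was at 2.55 and 2.36 CPM in confluent wild type and 18.4 and 21.5 CPM in double knockdown.

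Transcript ENSCAFT00000019091 followed and was highest in YAP5SA+S94A cells. Its level was 39.4, 40 and 38.6 CPM there, 3.53 and 2.97 CPM in YAP5SA-labelled, 5.80, 4.93 and 6.54 CPM in wild-type and 11.4, 12.3 and 11.4 CPM in double knockdown libraries. The groups did not overlap. Its log2 fold change was -3.61 (SE 0.117, edgeR adjusted p = 1.0e-34) for YAP5SA-labelled over YAP5SA+S94A and 1.76 (SE 0.0753, edgeR adjusted p = 1.6e-28) for YAP5SA+S94A over double knockdown. In experiment 1 it stood at 6.93 and 5.94 CPM in confluent wild type and 5.02 and 2.71 CPM in double knockdown. Double knockdown over wild type was thus a log2 fold change of -0.75 there (SE 0.369, edgeR adjusted p = 1.2e-01), against 1.01 in experiment 2 (SE 0.11, edgeR adjusted p = 3.1e-12). These 4 transcripts thus show different arrangements: YAP5SA-labelled above wild type, YAP5SA-labelled level with wild type, and YAP5SA+S94A above the rest.

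**Figure D2:**
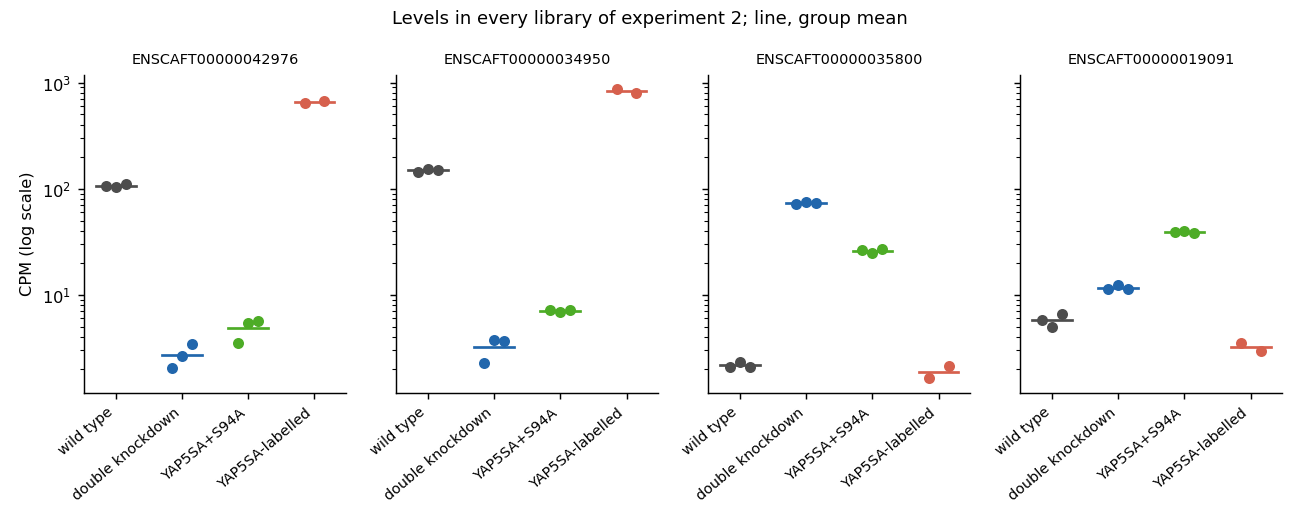
CPM on a log axis in every library of experiment 2 for the 4 printed transcripts, with a line at each group mean. YAP5SA-labelled libraries are highest for the first pair (644 and 666 CPM for ENSCAFT00000042976), level with wild type for ENSCAFT00000035800 and lowest for ENSCAFT00000019091.

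To see how common each arrangement was, group means of log2 CPM were compared for the 1195 transcripts at least 2-fold apart. A group was called apart when it lay at least 2-fold beyond each of the other 3, and 2 groups side by side when they differed by under 1.5-fold. YAP5SA-labelled cells stood apart for 245 of the 847 higher transcripts (28.9%) and 77 of the 348 lower ones (22.1%). YAP5SA+S94A cells stood apart for 37 (4.37%) and 29 (8.33%). YAP5SA-labelled beside wild type together with YAP5SA+S94A beside double knockdown was shown by 175 higher (20.7%) and 79 lower transcripts (22.7%). YAP5SA-labelled beside double knockdown was shown by 72 higher (8.50%) and 39 lower ones (11.2%), 3 and 2 had both YAP lines apart, and 315 and 122 had none of these. YAP5SA+S94A beside wild type was not among the arrangements. Taken alone, it held for 297 higher (35.1%) and 147 lower transcripts (42.2%), beside 82.8% of all tested. YAP5SA-labelled beside wild type held for 298 higher (35.2%) and 131 lower ones (37.6%), beside 81.3%. YAP5SA+S94A beside double knockdown held for 485 higher (57.3%) and 195 lower ones (56%), beside 87.3%. The counts use the libraries that chose the transcripts and are a description.

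Those boundaries decide much of the count. With apart set at 1.5-fold, YAP5SA-labelled cells stood apart for 396 higher and 147 lower transcripts. With side by side set at under 25% apart, each line lay beside its reference for 62 higher and 21 lower ones.

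**Figure D3:**
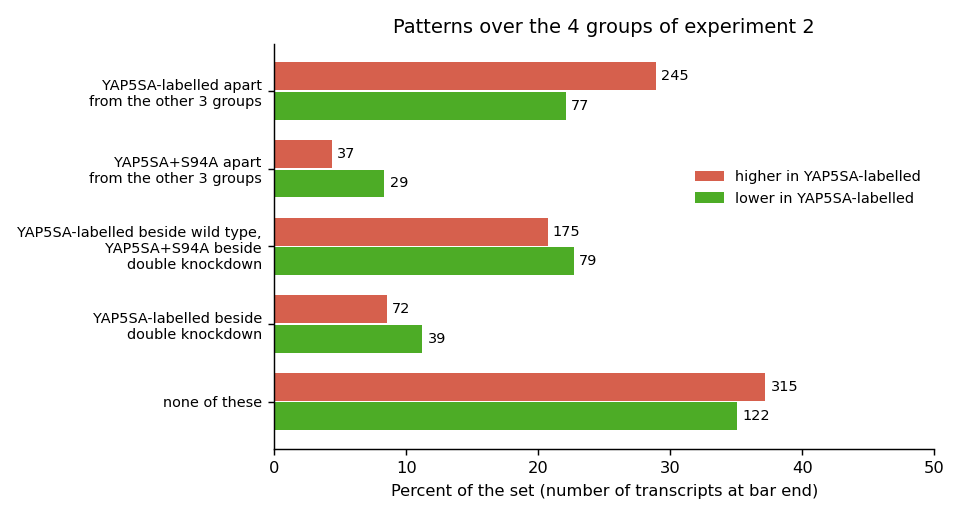
Percent of the 847 higher (red) and 348 lower (green) transcripts in each arrangement of the 4 group means of experiment 2, with the number of transcripts at each bar end. YAP5SA-labelled apart (245 higher) and the arrangement with YAP5SA-labelled beside wild type and YAP5SA+S94A beside double knockdown (175 higher) are each several times more frequent than YAP5SA+S94A apart (37 higher).

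Seen against each reference, the 847 higher transcripts combined differences from both sides. Their median log2 fold change was 0.79 for YAP5SA-labelled over wild type, -0.04 for YAP5SA+S94A over double knockdown and -0.98 for double knockdown over wild type. YAP5SA-labelled over wild type (56.6% of all tested called) called 527 of them higher (62.2%) and 94 lower (11.1%), against 29.7% and 26.9% of all tested transcripts. YAP5SA+S94A over double knockdown (51.3% called) had 191 of them higher (22.6%) and 202 lower (23.8%), against 25.9% and 25.4%. Double knockdown over wild type (70.3% called) had 116 higher (13.7%) and 530 lower (62.6%), against 35.2% and 35.1%. These comparisons share libraries with each other and with the one that chose the transcripts, so their values are set side by side only.

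The medians of the 348 lower transcripts had the opposite signs. They were -0.85 for YAP5SA-labelled over wild type, 0.19 for YAP5SA+S94A over double knockdown and 0.50 for double knockdown over wild type. YAP5SA+S94A over double knockdown called 150 of them higher (43.1%, beside 25.9%) and 85 lower (24.4%, near the 25.4% of all tested). The higher set had no such excess of higher calls in that comparison. YAP5SA-labelled over wild type called 222 lower (63.8%, beside 26.9% of all tested) and 23 higher (6.61%, beside 29.7%). Double knockdown over wild type called 179 higher (51.4%, beside 35.2%) and 76 lower (21.8%, beside 35.1%).

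Because the labels conflict, a second contrast took wild type as the reference of the YAP5SA-labelled cells and double knockdown as that of the YAP5SA+S94A cells, and tested the difference between these differences. It called 3729 transcripts up (28.6%) and 3645 down (27.9%), or 56.5% in all. Of these, 866 (6.63%) and 798 (6.11%) were past 2-fold, 12.7% together. Of the 847 transcripts higher in the direct comparison, this contrast called 420 higher, 107 lower and 320 neither way, and 318 were at least 2-fold higher in both. Of the 348 lower ones it called 208 lower, 27 higher and 113 neither way, with 160 at least 2-fold lower in both. ENSCAFT00000042976 (log2 1.78, SE 0.195, edgeR adjusted p = 2.5e-10) and ENSCAFT00000034950 (log2 1.33, SE 0.161, edgeR adjusted p = 6.0e-10) kept their sign. ENSCAFT00000019091 did so too (log2 -2.59, SE 0.182, edgeR adjusted p = 5.9e-19). ENSCAFT00000035800 changed sign (log2 1.31, SE 0.254, edgeR adjusted p = 1.1e-05). Which transcripts count as higher with a TEAD-binding YAP5SA therefore depends in part on which label is right.

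YAP5SA-labelled over wild type and YAP5SA+S94A over double knockdown share no library, so they could be compared with each other. At least 2-fold and called were 576 transcripts raised (4.41%) and 405 lowered (3.1%) in the former, 7.51% together. In the latter 339 were raised (2.6%) and 247 lowered (1.89%), 4.49% together. The raised lists had 66 transcripts in common, 11.5% of the former list and 19.5% of the latter. The lowered lists shared 26, which is 6.42% and 10.5%. Opposite changes were also found: 74 transcripts raised over wild type were lowered over double knockdown, and 46 lowered over wild type were raised over double knockdown. Across the 13061 transcripts, which are not independent replicates, the fold changes had Pearson's r = -0.08 and a Spearman rank correlation of -0.16.

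**Figure D4:**
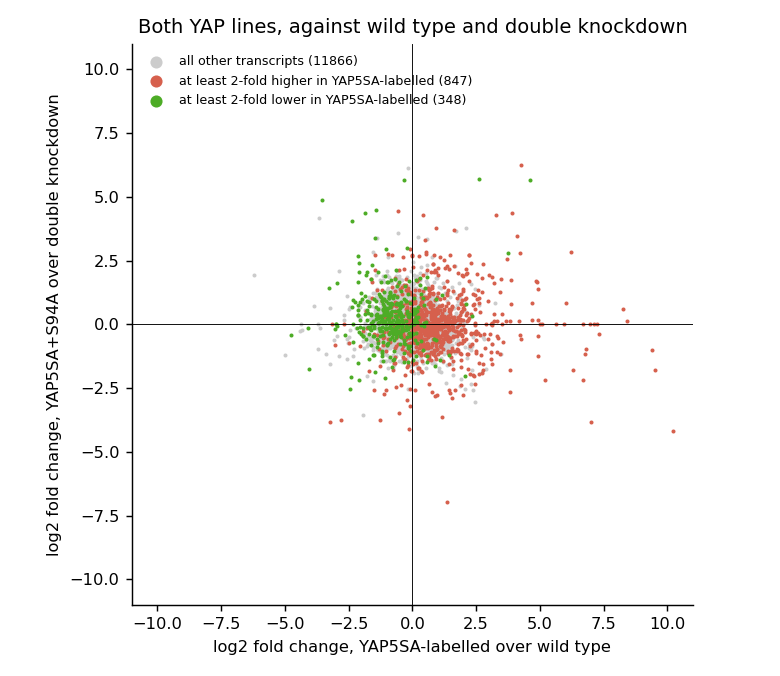
Log2 fold change of YAP5SA+S94A over double knockdown (vertical) against that of YAP5SA-labelled over wild type (horizontal), 1 point per transcript; the axes share no library. The 847 higher transcripts (red) spread to the right, with a median of 0.79 horizontally and -0.04 vertically. The 348 lower ones (green) spread to the left, with a median of -0.85 horizontally and 0.19 vertically. Both sets were chosen on the YAP5SA-labelled and YAP5SA+S94A libraries used in these axes, so the choice itself favours this spread.

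Experiment 1 gave sets of transcripts chosen without any library of experiment 2. The double knockdown at confluence raised 812 transcripts there to at least 2-fold, of which 781 were tested in experiment 2. It lowered 1254, of which 1228 were tested. In YAP5SA-labelled over YAP5SA+S94A cells the knockdown-lowered set had a median log2 fold change of 0.44, beside 0.00170 over all tested transcripts. In it 690 transcripts were called higher (56.2%) and 135 lower (11%), beside 27.8% and 26.5% of all tested. The knockdown-raised set had a median of -0.09, with 183 called higher (23.4%) and 285 lower (36.5%). The separation between the YAP lines was thus larger on transcripts that the double knockdown lowers than on those that it raises, as a description of these medians. Whether the YAP5SA-labelled cells hold the shRNAs is not settled, so knockdown and YAP form cannot be told apart here.

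Library by library, the knockdown-lowered set lay at -0.947 to -0.863 against the wild-type mean of experiment 2 in double knockdown libraries (median of log2 CPM differences). It lay at -0.505, -0.487 and -0.505 in YAP5SA+S94A and at -0.122 and -0.125 in YAP5SA-labelled libraries. The groups did not overlap, and YAP5SA-labelled libraries came closest to wild type. The knockdown-raised set lay at 0.735 to 0.811 in double knockdown, at 0.424, 0.420 and 0.438 in YAP5SA+S94A and at 0.302 and 0.298 in YAP5SA-labelled libraries. Here both YAP lines were between wild type and double knockdown, and neither reached wild type.

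The single knockdowns gave the same arrangement for lowered transcripts. The p190A-lowered set (420 of 428 tested) had a median of 0.81 in YAP5SA-labelled over YAP5SA+S94A cells. In it 277 transcripts were called higher (66.0%) and 47 lower (11.2%), beside 27.8% and 26.5% of all tested. It lay at -0.0264 and -0.0546 against the wild-type mean in YAP5SA-labelled libraries, at -0.724 to -0.706 in YAP5SA+S94A and at -1.28 to -1.15 in double knockdown libraries. The p190B-lowered set (316 of 321 tested) had a median of 0.60, with 192 called higher (60.8%) and 60 lower (19%), beside the same shares of all tested. These are not separate results, because 165 transcripts belong to both sets, 330 of the p190A-lowered ones are also in the knockdown-lowered set, and all were chosen against the same wild-type libraries. In the same comparison the p190A-raised set (161 of 169 tested) had a median of -0.22, with 32 called higher (19.9%) and 79 lower (49.1%). The p190B-raised set (278 of 303 tested) had a median of 0.02, with 105 called higher (37.8%) and 93 lower (33.5%).

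**Figure D5:**
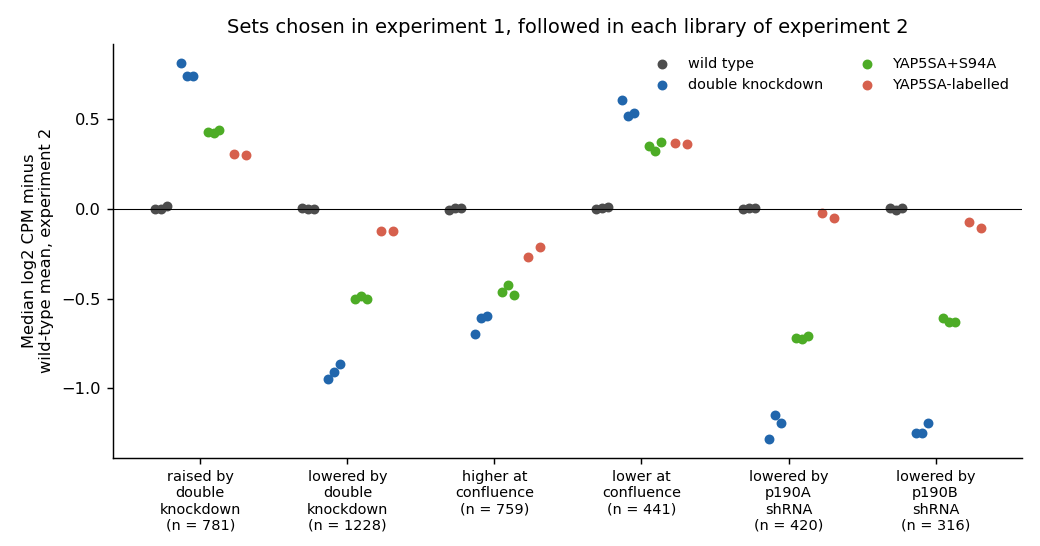
Median over each set of log2 CPM minus the wild-type mean of experiment 2 (vertical axis), 1 point per library, for 6 sets chosen in experiment 1 (horizontal axis). YAP5SA-labelled points lie closest to 0 in the lowered sets (-0.122 and -0.125 for double knockdown), while in the set lower at confluence they lie within the YAP5SA+S94A range.

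Contact-responsive transcripts were followed in the same way. In wild type of experiment 1, confluence raised 780 transcripts at least 2-fold against sub-confluent cells (759 tested). These had a median of 0.23 in YAP5SA-labelled over YAP5SA+S94A cells. Of them, 316 were called higher (41.6%, beside 27.8% of all tested) and 100 lower (13.2%, beside 26.5%). They lay at -0.267 and -0.216 against the wild-type mean in YAP5SA-labelled, at -0.478 to -0.424 in YAP5SA+S94A and at -0.699 to -0.596 in double knockdown libraries. The 457 transcripts lower at confluence (441 tested) had a median of 0.04, with 157 called higher (35.6%, beside 27.8%) and 136 lower (30.8%, beside 26.5%). The sign of this median was not stable: it was -0.0589 with sets of any size and -0.00385 with sets at least 4-fold. Their position was 0.364 and 0.362 in YAP5SA-labelled, inside the range of 0.322 to 0.372 of the YAP5SA+S94A libraries, and 0.517 to 0.606 in double knockdown. The libraries of the YAP lines were thus apart on transcripts that confluence raises and overlapped on those that it lowers. Of the 780, 456 are also in the knockdown-lowered set, and both sets were chosen with the same confluent wild-type libraries.

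The second contrast reversed the median of each of these sets except the one lower at confluence, which was positive in both. Over the parents, the knockdown-lowered set had a median of -0.48 and the knockdown-raised set one of 0.67. The sets higher and lower at confluence had -0.41 and 0.62, against 0.00119 over all tested transcripts. By construction it adds to the direct difference the difference of double knockdown from wild type, which in experiment 2 had medians of -0.93 and 0.77 on the knockdown-lowered and knockdown-raised sets.

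The transcripts of the direct comparison were then looked up in experiment 1. Of the 847 higher ones, 685 passed its filter on low counts. Their median log2 fold change was -1.07 in double knockdown against wild type at confluence, with 351 called lower (51.2%, beside 21.6% of all tested) and 57 higher (8.32%, beside 21.9%). With the p190A shRNA alone the median was -0.68, with 206 called lower (30.1%, beside 6.94%) and 20 higher (2.92%, beside 6.51%). With the p190B shRNA alone it was -0.33, with 133 lower (19.4%, beside 5.64%) and 60 higher (8.76%, beside 7.04%). In confluent against sub-confluent wild type it was 0.46, with 195 called higher (28.5%, beside 14.3%) and 65 lower (9.49%, beside 15%). In libraries that took no part in choosing these transcripts, the shares called lower with each knockdown were thus above those of all tested transcripts. The YAP5SA+S94A cells hold both shRNAs, and the labels conflict on whether the YAP5SA-labelled cells do. A difference in knockdown and one in YAP form therefore cannot be told apart in these shares. Leaving out either library of a compared group left a lone library there, and most of the counts above fell. Why they fell was not tested. The lowest counts, in the order given above, came without double knockdown replicate 1, p190A replicate 1, p190B replicate 1 and sub-confluent wild-type replicate 2. In each of those fits the share called stayed above that of all tested transcripts. The p190A count also fell past 1.5 times without p190A replicate 2 (105) and confluent wild-type replicates 1 and 2 (129 and 122). Without those wild-type replicates the p190B count became 87 and 79 and the confluence count 123 and 100, and without sub-confluent wild-type replicate 1 the confluence count became 109. The opposite counts moved as well. Without confluent wild-type replicate 2 the 57 higher in double knockdown became 35, the 20 higher with p190A became 7, the 60 higher with p190B became 32 and the 65 lower at confluence became 20. Without confluent wild-type replicate 1 the p190A, p190B and confluence counts became 11, 38 and 38. The 20 became 11 and 7 without p190A replicates 1 and 2, the 60 became 38 without p190B replicate 2, and the 65 became 29 without sub-confluent wild-type replicate 2.

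The 348 lower transcripts, 328 of them tested in experiment 1, had medians smaller in size. These were 0.22 in double knockdown, 0.18 with the p190A shRNA, 0.01 with the p190B shRNA (-0.01 under RLE scaling) and -0.14 at confluence. Double knockdown called 101 higher (30.8%, beside 21.9% of all tested) and 54 lower (16.5%, beside 21.6%). Confluence called 77 lower (23.5%, beside 15%) and 46 higher (14%, near the 14.3% of all tested). The count of 77 became 33 without confluent wild-type replicate 2 and 48 without sub-confluent wild-type replicate 2. The count of 46 fell when any 1 wild-type library was left out, to 25 (confluent replicate 1), 20 (confluent replicate 2), 26 (sub-confluent replicate 1) or 19 (sub-confluent replicate 2).

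The arrangements also differed in experiment 1. Of the 175 higher transcripts with YAP5SA-labelled beside wild type and YAP5SA+S94A beside double knockdown, 146 were tested there. Their median was -1.33 in double knockdown against wild type and 0.61 at confluence, with 87 called lower in the former (59.6%, beside 21.6% of all tested) and 46 higher in the latter (31.5%, beside 14.3%). Of the 245 for which YAP5SA-labelled cells stood apart, 180 were tested, with medians of -0.89 and 0.07. Of these, 82 were called lower in double knockdown (45.6%). At confluence 42 were called higher (23.3%) and 31 lower (17.2%, near the 15% of all tested). Each of these 3 confluence counts fell by over 1.5 times without any 1 of the 4 wild-type libraries, to 18 of the 46 and 20 of the 42 without sub-confluent replicate 2 and to 9 of the 31 without confluent replicate 2. The knockdown and confluence comparisons share the confluent wild-type libraries of experiment 1. Whether the 2 classes differ was not tested.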

How the data were processed

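Single-read TruSeq mRNA libraries were made from total RNA with an integrity number above 9.5, per the labels' protocols. Tools named without a role in the submitters' processing notes are DESeq2 1.4.5, HTSeq 0.6.0 and STAR 2.3.1n, with build CanFam3.1. Strand settings are not given in the sources used here. Each sample has its own table, in which the authors deposited unnormalized read counts by Ensembl transcript. Its 5 summary rows entered neither library sizes nor tests. Of reads placed once in experiment 2, 20.3% to 21.2% were ambiguous between transcripts and 22.1% to 23.8% lay outside transcripts.

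Counts were filtered with filterByExpr, scaled by TMM and fitted with edgeR 4.0.16 in R 4.3.3 (robust quasi-likelihood), with 4 group means over 11 libraries of experiment 2 and 8 group means over 16 of experiment 1. The standard error was derived from the F statistic. DESeq2 1.42.0, limma-voom (limma 3.58.1), RLE scaling, no filter, other set limits and leaving out each library were alternatives. Printed transcripts were called, had at least 10 counts in each of the 5 libraries and CPM ranges apart, passed again when just these 2 groups were fitted, and had the largest fold changes, 2 per direction of 3203 higher and 3274 lower eligible. The fixed gene lists and cell type markers were not run, for want of gene names. The fit was tested on simulated data. Members and sets were chosen with earlier results of these data known.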

Additional observations from a re-analysis of the deposited data

How the results depend on the processing

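RLE scaling, DESeq2, limma-voom, no filter on low counts and a fit of only the 2 groups kept every count of calls within 1.5 times its value, and the 4 printed transcripts kept sign and call in all fits. The direct comparison gave 6143 calls with DESeq2 and 7338 in the fit of only the 2 groups, and 3476 when tested against a fold of 1.2, a stricter question by construction. Leaving out 1 library of experiment 2 gave 6063 to 7251 calls in the direct comparison and 1177 to 1215 at least 2-fold, where a group of YAP5SA-labelled cells left with 1 library is assumed to vary like the others.

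Wild type, double knockdown and YAP5SA+S94A share the letters A to C in their titles, while the YAP5SA-labelled titles all carry C, so a replicate block was possible only without that group. It gave 6616 calls for YAP5SA+S94A against double knockdown, against 6651 in the same libraries without it. Same-letter libraries did not deviate together (r -0.0349 to 0.0188 over 9 pairs), and the letters are taken as names only. For the direct comparison no paired analysis was possible because the YAP5SA-labelled titles all carry 1 letter, which separates none of them.

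Medians over sets moved with the set limits. In the direct comparison, sets of any size gave -0.11 and 0.17 for double knockdown raised and lowered, 0.0765 and -0.0589 for higher and lower at confluence, and 0.33 and 0.23 for p190A and p190B lowered. Sets at least 4-fold gave -0.13 and 0.97, 0.41 and -0.00385, and 1.26 and 1.01. The set lower at confluence thus has no stable sign. Without the filter, the set higher at confluence gave 0.19 and the p190A and p190B lowered sets 0.76 and 0.56. In experiment 1, the higher transcripts of any size gave -0.26 in double knockdown, -0.14 with p190A, -0.0461 with p190B and 0.0549 at confluence, and those at least 4-fold -2.10, -1.01, -0.77 and 0.57. The lower transcripts of any size gave 0.0744 with p190A, and those at least 4-fold 0.45, 0.34, -0.21 and -0.86. Their p190B median was also -0.00510 under RLE, so it has no stable sign.

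Leaving out 1 library moved the medians in the direct comparison to -0.108 to -0.0742 and 0.422 to 0.448 (double knockdown raised and lowered), 0.209 to 0.279 and 0.0260 to 0.0426 (higher and lower at confluence), 0.770 to 0.844 (p190A lowered) and 0.574 to 0.599 (p190B lowered). In experiment 1 the higher transcripts gave -1.29 to -1.06 in double knockdown, -0.738 to -0.672 with p190A, -0.432 to -0.259 with p190B and 0.410 to 0.487 at confluence. The lower ones gave 0.154 to 0.269, 0.161 to 0.276, -0.0543 to 0.0949 and -0.231 to -0.0930. The p190B median was negative without confluent wild-type replicate 2 and without p190B replicate 1 (-0.0392).

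Pattern counts moved with their limits. With apart at 1.5-fold, YAP5SA-labelled cells stood apart for 396 and 147 transcripts (higher and lower), YAP5SA+S94A cells for 85 and 47, and 112 and 27 had no named arrangement. With side by side under 25% apart, 62 and 21 had each line beside its reference, 33 and 23 had YAP5SA-labelled beside double knockdown, and 196 lower ones had none. A prior count of 0.5 put YAP5SA+S94A apart for 60 higher transcripts.

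Calls covered 32.0% of the lowest of the 4 level classes and 74.2% of the highest; the part of depth in this was not tested.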
